A study of Mus musculus with 22 samples.

Results

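Of the mouse microRNA families miR-466, miR-669, miR-467 and miR-297, detection and level were followed across cultured liver cells treated with cyclosporin A. All non-control array entries named after these 4 families were taken, which gave 61 of the 1247 miRNAs on the array: 23 of miR-466, 23 of miR-669, 12 of miR-467 and 3 of miR-297. The cells were primary hepatocytes of C57Bl6 mice, that is, liver parenchymal cells put into culture from the animal. They received cyclosporin A (CsA), a calcineurin inhibitor given against graft rejection that can harm the liver, at 10 µM or 50 µM, or 0.5% DMSO as the solvent control, for 24 h or 48 h. Going by the spot files' names, the 24 h cultures gave 3 arrays with 10 µM, 2 with 50 µM and 5 with DMSO. The 48 h cultures gave 3, 3 and 6 in the same order. The labels call the arrays of a group biological replicates from numbered experiments but name no animal. There were 3 experiments, and the DMSO groups, like CsA groups with both doses pooled, hold several arrays of the same experiment. The fits counted each array as independent, so the p-values measure the spread between these cultures, within and between experiments. Each array also carries an IC20 tag of 24 h or 48 h. By the spot files' names the tag is 24 h on all 50 µM arrays and 48 h on all 10 µM arrays. The DMSO arrays carry either tag. The tag was not used in the fits, and each dose was compared with all DMSO arrays of its time.

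Dose names needed care. Of the 22 columns of the series' value table, 16 held the array filed under another sample name: 8 CsA arrays stood under the other dose, and 8 DMSO arrays under another DMSO sample of the same time. All 16 kept their time and experiment. Comparisons with both CsA doses pooled are the same under either naming and are given first. Dose comparisons of the spot signals are given under both.

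MicroRNAs are short RNAs cut from hairpin precursors, and each hairpin can give a 5p and a 3p strand. They pair with messenger RNAs mainly through the seed, bases 2 to 8, and lower translation or stability of the target. The mouse families studied here expanded together in rodents, largely inside an intron of Sfmbt2, a Polycomb-group gene that is imprinted and expressed from the paternal copy in extra-embryonic tissue. The intron cluster is known for its part in placental growth and for its expression in embryonic stem cells, and not as a hallmark of the liver. Many of these miRNAs are built of UG or CA repeats. Other individual roles are known for few members: miR-669a holds back muscle genes in heart progenitors, and miR-466l has been tied to interleukin-10.

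The families were not all of the Sfmbt2 cluster. In the RefSeq gene table for GRCm38.p6, 71 of 81 hairpin genes with these family names lay inside the span of Sfmbt2 and 10 lay elsewhere. Of the 61 array entries, 49 had all their hairpins inside Sfmbt2, 3 had hairpins both inside and outside, 8 had hairpins only outside, and 1 had no matching hairpin gene. The 8 outside entries were miR-466i-3p, miR-466i-5p, miR-466j, miR-466k, miR-466q, miR-467f, miR-467g and miR-669n. Of the 11 members that were detected well enough to be tested, 5 belonged to these 8. Whether location bears on detection was not tested. The other 6 were miR-466f-3p, with hairpins in both places, and miR-466g, miR-466h-3p, miR-669c-3p, miR-669l-5p and miR-669p-3p, inside Sfmbt2.

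Mature sequences for 7 of the 61 members, 4 of them tested, were found in the RefSeq miRNA table (GRCm38.p6). They are shown because miR-466q, miR-467f and miR-466i-3p, which had the same 6 highest arrays, are CA repeats. The UG repeat miR-669n shared 2 of its 6 highest arrays with each of them. Capitals mark the seed, and no 7-base seed was shared between any of these 7.
miR-466i-3p: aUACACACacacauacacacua
miR-466q: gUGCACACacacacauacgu
miR-467f: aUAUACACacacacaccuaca
miR-467g: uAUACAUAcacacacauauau
miR-669n: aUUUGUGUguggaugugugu
miR-466j: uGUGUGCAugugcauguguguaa
miR-466k: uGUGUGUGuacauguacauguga
The first 4 are CA repeats. Their longest run of alternating C and A was 11 bases in miR-466i-3p, 12 in miR-466q, 12 in miR-467f and 9 in miR-467g. The last 3 are UG repeats, with alternating U and G over 8, 7 and 9 bases. The CA repeat miR-467g and the UG repeat miR-466k were detected on 0 of 22 arrays, and miR-466j on 1. Their high arrays can therefore not be compared with those of the tested members. Within the CA set the longest stretch shared by miR-466i-3p and miR-466q was 14 bases, and miR-466i-3p shared 13 with miR-467f. Their genes lie apart: miR-466i-3p at chr13:17747552-17747573 on the plus strand within Cdk13, miR-466q at chr3:28419988-28420007 on the plus strand within Tnik, miR-467f at chr11:69635419-69635439 on the minus strand within Fxr2, and miR-669n at chr3:115979905-115979924 on the plus strand within Slc30a7.

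Levels are on a log2 scale on which 0 is the array's own upper quartile (75th percentile) of the 281 probes seen everywhere, and the lower limit was -4.41. Detected here means that the scanner software marked a share of 0.5 or more of the spots as well above background. On the 22 arrays between 172 and 321 of the 1247 miRNAs were detected, and no spot was saturated. All 4 hepatocyte markers (miR-122-5p, miR-122-3p, miR-192-5p and miR-194-5p) were detected on 22 of 22 arrays. Of the markers of other cells, 0 of 4 leukocyte, 0 of 2 erythroid, 0 of 3 stellate and 0 of 5 epithelial markers were detected on any array. Of the 2 endothelial markers, miR-126-3p was detected on 20 arrays and miR-126-5p on none.

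DMSO 24 h replicate 5 stood apart from the other 21 arrays in these families, and results that rest on it are given with and without it. All 11 tested members had their highest value on it, against 31 of all 289 tested miRNAs. miR-466g was detected on 2 other arrays, so it reached the 3 arrays needed for testing only through this one. The 11 members lay 1.72 to 3.30 log2 units above the median of the other 4 DMSO 24 h arrays, while the median over the 289 tested miRNAs was -0.08. In other measures the array lay within the range of the others. It had 271 detected miRNAs, the third highest of the 22 arrays, a percentile signal of 373, the second highest in a range of 188 to 605, a mean negative-control signal of 1.38 within 0.612 to 3.41, and 3.38% outlier spots within 2.19% to 10.3%. Its summed scaled signal of the 4 hepatocyte markers was 48.5, within the 43.9 to 66.8 of the others. The leukocyte, stellate, erythroid and other epithelial markers were all undetected on it, and 1 of 2 endothelial markers was detected. What set this array apart was not tested.

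Detection was sparse and uneven between the families. No miR-297 entry was detected on any array (0 of 3) under this rule. Counting any probe, or by the scanner's own detection flag, 1 was seen on DMSO 24 h replicate 5. Of the 23 miR-466 entries, 6 were detected on 3 or more arrays, 5 on 1 or 2 and 12 on none. For miR-467 the counts were 1, 1 and 10 of 12, and for miR-669 4, 7 and 12 of 23. In all, 11 of 61 (18.0%) were detected on 3 or more arrays, against 289 of 1247 entries of the array (23.2%). Never detected were 37 of 61 (60.7%), against 71.0% of all entries. This gap rests largely on DMSO 24 h replicate 5. On that array only, 6 of the 61 members (9.84%) were detected, against 16 of the 1247 entries (1.28%). A miRNA that is not well above background may still be present below that limit.

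On most arrays the same handful of members was seen. Leaving out DMSO 24 h replicate 5, an array showed 2 to 11 members, with a median of 7. DMSO 24 h replicate 5 showed 24: 11 of miR-466, 2 of miR-467 and 11 of miR-669. These were all 24 members detected on any array. By group, 7 to 8 members were detected on the CsA arrays of 24 h, 2 to 11 on the CsA arrays of 48 h, 6 to 24 on DMSO arrays of 24 h (6 to 10 without replicate 5) and 4 to 10 on DMSO arrays of 48 h. The lowest count, 2, came from CsA 50 µM 48 h replicate 2, which also had the fewest detected miRNAs of all kinds, 172. CsA 50 µM 48 h replicate 1, with 175 detected miRNAs, and DMSO 48 h replicate 3, with 219, showed 4 members each. On both of these CsA arrays the dimmest detected entry lay higher than on any other array, at -3.34 on replicate 2 and -3.26 on replicate 1. Its part in the low counts was not tested.

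**Figure D1:**
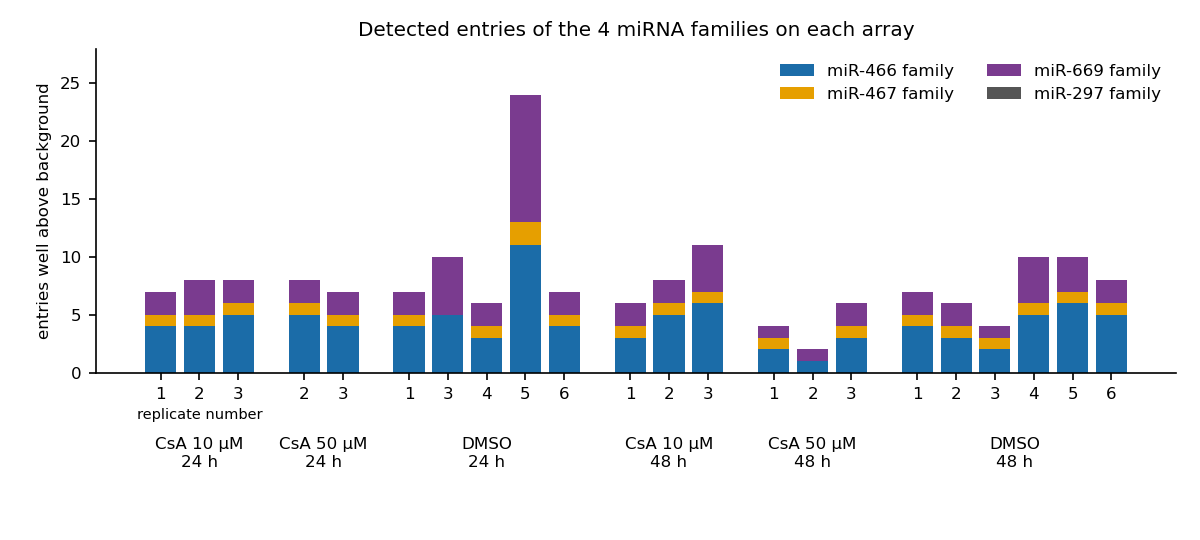
Number of entries of the 4 families well above background on each of the 22 arrays, stacked by family, with arrays ordered by group and replicate number. DMSO 24 h replicate 5 shows 24 entries while the other 21 arrays show 2 to 11, and no miR-297 entry appears.

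The strands named among the members differed between those seen on few arrays and those tested. The 13 members seen on only 1 or 2 arrays were all seen on DMSO 24 h replicate 5, at levels from the lower limit to -1.80. They were miR-466c-5p, miR-466f-5p, miR-466h-5p, miR-466j, miR-466m-5p, miR-467c-5p, miR-669b-5p, miR-669e-5p, miR-669f-3p, miR-669f-5p, miR-669h-3p, miR-669k-5p and miR-669o-5p. By name 10 of these 13 are 5p strands and 2 are 3p strands, whereas the 11 tested members hold 2 5p, 5 3p and 4 with no strand in the name. Over all 61 entries there are 25 5p and 26 3p, of which 13 and 19 were never detected. The larger 5p count among the 13 rests on DMSO 24 h replicate 5. Strand shares over the whole array were not counted. Of the 7 seen on 2 arrays, 6 had DMSO 24 h replicate 3 as their other array, and miR-669f-3p had CsA 10 µM 48 h replicate 3.

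The 4 members with the highest median level are given on every array, each to be read within its own probe. miR-466i-5p was detected on all 22 arrays. After 24 h it stood at -0.23, 1.58 and 0.63 with 10 µM CsA (replicates 1 to 3), 1.45 and 0.52 with 50 µM (replicates 2 and 3), and 0.00, 1.77, 0.72, 3.81 and 0.31 in DMSO (replicates 1, 3, 4, 5 and 6). After 48 h it stood at -0.03, 1.29 and 0.40 with 10 µM, 1.16, 0.39 and 0.34 with 50 µM, and from -0.97 through a median of 0.44 to 1.42 on the 6 DMSO arrays. CsA and DMSO overlapped at both times, and the arrays above 1 came from every group.

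The other member seen on all 22 arrays, miR-669n, varied likewise. Its 24 h levels were -3.27, -0.86 and -3.01 with 10 µM, -1.13 and -2.72 with 50 µM, and -2.81, -1.61, -2.04, 0.08 and -2.71 in DMSO. At 48 h they were -3.03, -1.79 and -3.07 with 10 µM, -1.59, -2.70 and -2.72 with 50 µM, and -3.90 to -1.98 with a median of -2.81 in DMSO. The groups overlapped at both times.

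A 3p strand, miR-466h-3p, was detected on 21 arrays. At 24 h it stood at -3.32, -3.18 and -2.62 with 10 µM, -2.90 and -3.01 with 50 µM, and -3.27, -3.75, -3.57, -1.04 and -4.09 in DMSO. DMSO replicate 5 lay above all 5 CsA arrays, while the other 4 DMSO arrays lay below all CsA arrays but the lowest. At 48 h the levels were -3.15, -2.23 and -2.31 with 10 µM, -2.57, -3.46 and -3.36 with 50 µM, and -3.29, -3.69, -3.83, -2.44, -2.37 and -2.40 on DMSO replicates 1 to 6. DMSO replicates 4 to 6 and CsA 10 µM replicates 2 and 3 were the high arrays, so each treatment held high and low ones.

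The CA-repeat member miR-467f, detected on 20 arrays, had many of the same high arrays. It stood at -3.64, -3.91 and -3.01 with 10 µM, -3.32 and -3.65 with 50 µM and -3.31, -4.31, -4.05, -1.49 and -4.37 in DMSO at 24 h. At 48 h it stood at -3.58, -2.78 and -2.76 with 10 µM, -3.18, -3.99 and -3.91 with 50 µM, and -4.26 to -2.77 with a median of -3.21 in DMSO. All groups compared here overlapped again.

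**Figure D2:**
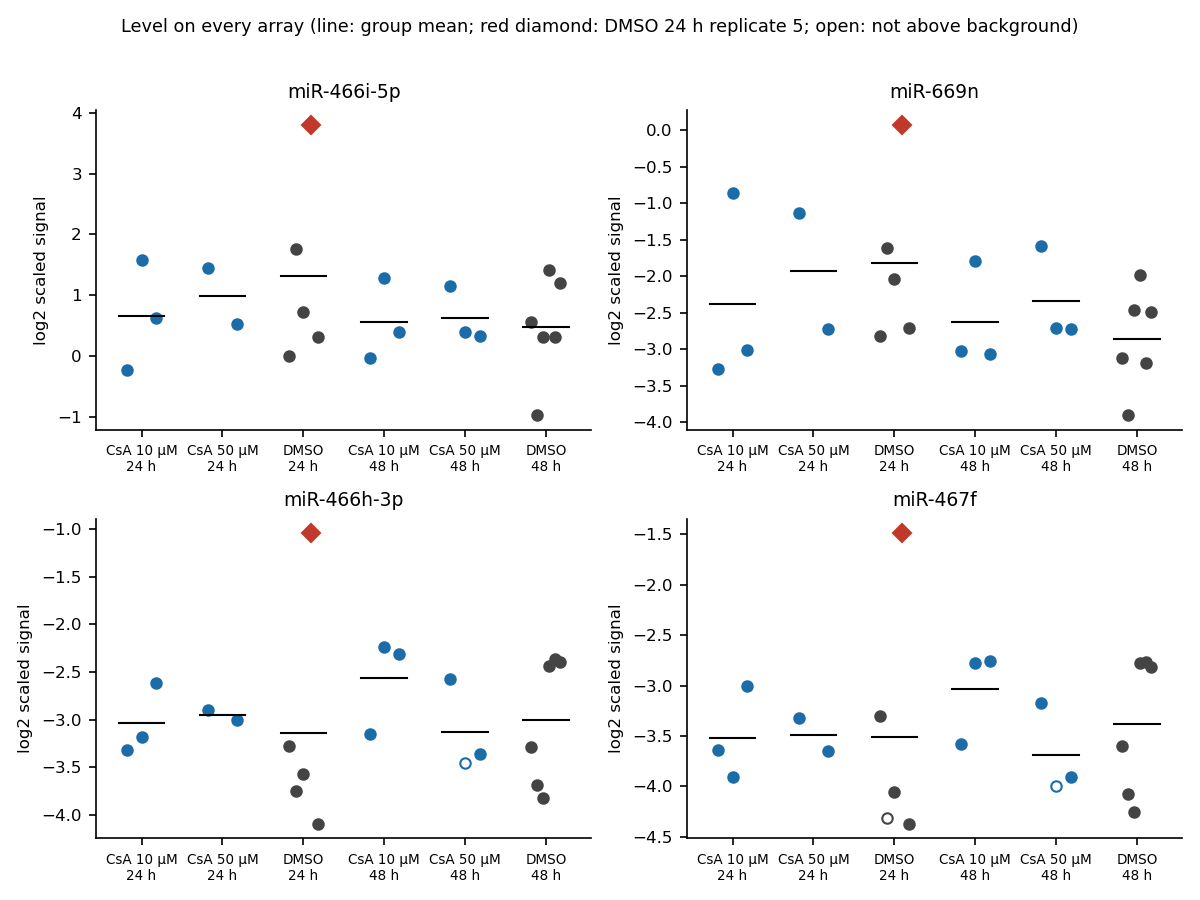
Log2 scaled signal of miR-466i-5p, miR-669n, miR-466h-3p and miR-467f on each array by dose and time, with the group mean as a line; filled points are well above background, open points are not. DMSO 24 h replicate 5 (red diamond) is highest in all 4 panels, at 3.81, 0.08, -1.04 and -1.49, and the CsA and DMSO arrays otherwise overlap.

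The remaining 7 tested members sat near the lower limit on many arrays. miR-669p-3p and miR-466q were detected on 18 arrays each, miR-466f-3p on 14, miR-466i-3p on 8, miR-669c-3p and miR-669l-5p on 4 each, and miR-466g on 3. On the 21 arrays other than DMSO 24 h replicate 5 their highest levels were -2.97 for miR-669p-3p, -2.99 for miR-466q, -3.08 for miR-466f-3p, -3.52 for miR-466i-3p, -3.71 for miR-669l-5p, -4.08 for miR-669c-3p and -4.40 for miR-466g. On that array they stood between -2.69 (miR-669c-3p) and -1.59 (miR-669p-3p and miR-466q).

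By their highest arrays, 9 of the 11 tested members were placed in 2 sets. All 11 had DMSO 24 h replicate 5 highest, so 1 of the 6 arrays compared is shared from the outset. miR-466h-3p, miR-467f, miR-669p-3p and miR-466q had the same 6 arrays as their highest: DMSO 24 h replicate 5, DMSO 48 h replicates 4, 5 and 6, and CsA 10 µM 48 h replicates 2 and 3. miR-466f-3p, miR-466i-3p and miR-669c-3p, each near the lower limit elsewhere, had these same 6 arrays highest. These came from 3 slides and from experiments 2 and 3, and held 0 of the arrays of experiment 1. Each of these 4 members had an SD of 0.69 to 0.70 over the 22 arrays, while the difference between miR-467f and miR-669p-3p on the same array had an SD of 0.11 and that between miR-466h-3p and miR-467f 0.14. Without DMSO 24 h replicate 5 the last 2 values were 0.11 and 0.15, against SDs of 0.52 to 0.56 for the 3 members themselves.

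miR-466i-5p and miR-669n formed the other set. They shared 5 of their 6 highest arrays, and their within-array difference had an SD of 0.38 against 0.95 and 0.93 for the levels. miR-466g and miR-669l-5p, at the lower limit on 20 and 18 of the 22 arrays, had ties among their 6 highest and were placed in neither set. Between the sets the match was looser: miR-466i-5p and miR-466h-3p shared 3 of 6 highest arrays, with an SD of 0.74 for their difference, and miR-669n and miR-467f shared 2, with 0.93. Arrays such as DMSO 24 h replicate 3 were high in one set (1.77 for miR-466i-5p) and low in the other (-4.31 for miR-467f). The SDs come from the same levels as the sets, and pairs among the other tested miRNAs, apart from the repeat entries below, were not examined. Points of 1 array share a hybridisation and a scaling, so this describes arrays and says nothing of shared regulation.

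Some repeat miRNAs outside the families followed the same arrays. The array held 9 other entries whose mature sequence in the RefSeq table contains UGUGUGU or ACACACA, and 4 of them were tested: miR-574-5p, miR-1187, miR-3082-5p and miR-32-3p, encoded at other loci. miR-574-5p is known as a UG-rich decoy of the RNA-binding protein CUGBP1. Their sequences are shown because miR-466i-5p and miR-669n varied closely with the first 3.
miR-574-5p: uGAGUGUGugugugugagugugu
miR-1187: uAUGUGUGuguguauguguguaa
miR-3082-5p: gACAGAGUgugugugucugugu
miR-32-3p: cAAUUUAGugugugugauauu
Alternating U and G ran over 13, 11, 10 and 9 bases in these. The within-array difference between miR-466i-5p and miR-574-5p had an SD of 0.14, although each varied with an SD of 0.95 and 0.94. Against miR-1187 the SD was 0.20 and against miR-3082-5p 0.26, and miR-669n differed from miR-3082-5p with an SD of 0.22. The difference from miR-32-3p was wider, with an SD of 0.49 for miR-466i-5p and 0.44 for miR-669n, against 0.69 for miR-32-3p itself. Without DMSO 24 h replicate 5 these were 0.48, 0.45 and 0.45. All 4 had their highest value on DMSO 24 h replicate 5, at 2.78, 1.97, 2.41 and -1.66. Of the 5 untested entries, miR-6348 and miR-672-5p were detected once each, on that same array, and miR-294-3p, miR-3097-5p and miR-672-3p never.

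**Figure D3:**
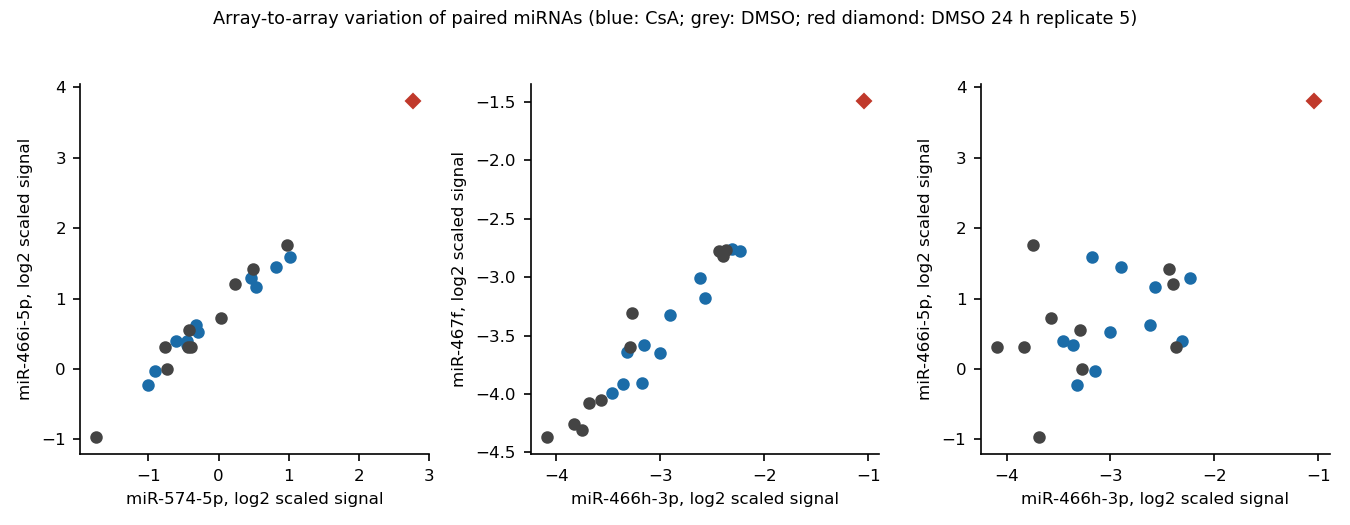
Log2 scaled signals of paired miRNAs, 1 point per array (blue CsA, grey DMSO, red diamond DMSO 24 h replicate 5). miR-466i-5p follows miR-574-5p and miR-467f follows miR-466h-3p closely, with SDs of the difference of 0.14 each, while miR-466i-5p and miR-466h-3p are loosely related, with an SD of 0.74.

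The first comparison asked whether CsA of either dose changed the families after 24 h. No tested member passed the threshold. limma called 0 of 11 members after Benjamini-Hochberg adjustment over the 289 tested miRNAs, and 0 at an unadjusted p under 0.05. Over all miRNAs it called 0%. For miR-466i-5p the mean was 0.79 ± 0.74 (SD, n = 5) in CsA and 1.32 ± 1.54 (SD, n = 5) in DMSO, a log2 change of -0.53 ± 0.58 (SE, adjusted p = 1) with a 95% interval from -1.67 to 0.61. For miR-466h-3p the values were -3.005 ± 0.268 and -3.15 ± 1.21, a change of 0.14 ± 0.45 (adjusted p = 1) with an interval from -0.74 to 1.02. The number of arrays, 5 on each side from 3 experiments, limits this precision. In bulk cultures a lower signal from fewer cells of a kind cannot be told apart from less RNA per cell.

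The direction of the 24 h values turned on DMSO 24 h replicate 5. With all arrays 10 of the 11 changes were below 0, with a median of -0.32 beside 0.05 over all tested miRNAs. The values for the other members were -0.63 for miR-669l-5p, -0.38 for miR-669n, -0.35 for miR-466g, -0.33 for miR-669c-3p, -0.32 for miR-466i-3p, -0.22 for miR-466f-3p, -0.19 for miR-669p-3p, -0.13 for miR-466q and -0.00 for miR-467f, with adjusted p from 0.748 to 1. miR-466g and miR-669c-3p were not well above background on any of the 5 CsA arrays and on 1 of 5 DMSO arrays (replicate 5), so their values rest on that array alone. Without the replicate 8 of the 11 values had the other sign, miR-466g came to 0, the median was 0.13 beside 0.03, and limma again called 0 of 11 (adjusted p from 0.767 to 1). The changes were then 0.67 ± 0.33 (SE) for miR-466h-3p, 0.50 ± 0.35 for miR-467f, 0.40 ± 0.33 for miR-466q, 0.09 ± 0.47 for miR-466i-5p and 0.09 ± 0.50 for miR-669n. Within slide 2, which held replicate 5 (3 CsA and 2 DMSO arrays), all 11 differences were below 0. Within slide 1 (1 CsA and 2 DMSO arrays) 8 were above 0 and 1 below, and within slide 3 (1 and 1) 4 were above and 4 below.

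**Figure D4:**
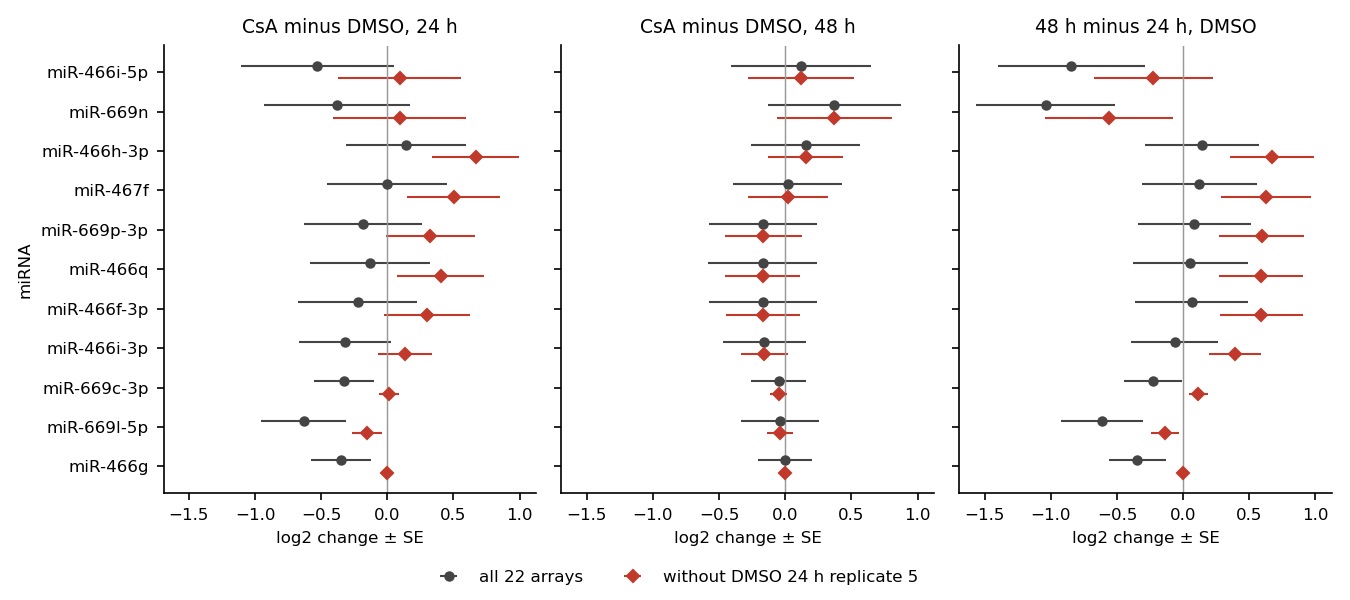
Log2 changes of the 11 tested members, with SE bars from the fit, for CsA minus DMSO at 24 h and 48 h and for 48 h minus 24 h in DMSO. Grey points use all 22 arrays and red diamonds leave out DMSO 24 h replicate 5; at 24 h miR-466i-5p goes from -0.53 to 0.09 and miR-466h-3p from 0.14 to 0.67, while the 48 h values stay as they were.

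After 48 h, no tested member passed the threshold with CsA of both doses pooled. limma called 0 of 11, and 0 at an unadjusted p under 0.05, where 1.04% of all tested miRNAs were called (3 of 289). Each side held 6 arrays. miR-669n had -2.48 ± 0.64 (SD) in CsA and -2.86 ± 0.68 in DMSO, a log2 change of 0.37 ± 0.50 (SE, adjusted p = 0.681), the farthest from 0 among the 11. miR-466i-5p had 0.59 ± 0.52 and 0.47 ± 0.84, a change of 0.12 ± 0.53 (adjusted p = 0.897) with a 95% interval from -0.92 to 1.16. For miR-466h-3p the change was 0.15 ± 0.41 and for miR-467f 0.02 ± 0.41. The other 7 lay between -0.17 and -0.00, and the median of the 11 was -0.04 beside 0.10 over all tested miRNAs. Leaving out DMSO 24 h replicate 5, which enters here only through the shared spread, changed no estimate and lowered the SE of miR-466h-3p to 0.28; the count stayed at 0.

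Culture time alone was read in DMSO, 48 h against 24 h. limma called 0 of 11 members, 0 at an unadjusted p under 0.05, and 0% of all tested miRNAs. With all arrays miR-669n was at -2.86 ± 0.68 (SD, n = 6) after 48 h and -1.82 ± 1.17 (SD, n = 5) after 24 h, a log2 change of -1.04 ± 0.53 (SE, adjusted p = 0.383). miR-466i-5p changed by -0.85 ± 0.56 (adjusted p = 0.614) and miR-669l-5p by -0.61 ± 0.31 (adjusted p = 0.380). Without DMSO 24 h replicate 5 these became -0.56 ± 0.48, -0.22 ± 0.45 and -0.13 ± 0.11. The set led by miR-466h-3p then stood higher at 48 h: 0.67 ± 0.32 for miR-466h-3p, 0.63 ± 0.34 for miR-467f, 0.59 ± 0.32 each for miR-466q and miR-669p-3p and 0.59 ± 0.31 for miR-466f-3p. Of the 11, 1 had an unadjusted p under 0.05 and none passed adjustment (adjusted p from 0.640 to 1). For miR-466h-3p the higher 48 h values were those of replicates 4 to 6, while replicates 1 to 3 lay between -3.83 and -3.29, inside the range of the other 4 DMSO arrays of 24 h (-4.09 to -3.27).

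In CsA cultures the 48 h and 24 h levels lay closer. limma called 0 of 11 members (0 at an unadjusted p under 0.05), where 0.346% of all tested miRNAs were called. The changes ran from -0.29 ± 0.53 (SE) for miR-669n to 0.16 ± 0.43 for miR-466h-3p, with a median of 0.05 beside 0.16 over all tested miRNAs. Whether the time difference in CsA and in DMSO differed from each other was not tested.

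Dose was then compared under both namings, beginning at 24 h. By the spot files limma called 0 of 11 members at 10 µM against DMSO (0% of all tested miRNAs) and 0 of 11 at 50 µM (0%), with medians over the members of -0.26 and -0.20. By the value table's names it also called 0 of 11 at 10 µM (0%) and 0 of 11 at 50 µM, where 3.81% of all tested miRNAs were called. The 2 dose comparisons share the DMSO arrays, replicate 5 among them. Without it the medians were 0.20 and 0.31 by the spot files and 0.02 and 0.35 by the value table's names. For 50 against 10 µM the call was 0 of 11 under either naming (0% of all by the spot files, 0.346% by the value table). miR-669n differed by 0.46 ± 0.83 (SE) by the spot files and by 0.44 ± 0.81 by the value table. In all of these 24 h comparisons 0 members had an unadjusted p under 0.05.

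At 48 h the dose comparison depended on the names. By the spot files 50 µM did not separate from 10 µM for any member, and limma called 0 of 11 (0% of all). miR-466h-3p was at -3.13 ± 0.49 (SD, n = 3) with 50 µM and -2.57 ± 0.51 (SD, n = 3) with 10 µM, a change of -0.56 ± 0.60 (SE, adjusted p = 1). No tested miRNA of the array lay higher at 50 µM without overlap (0%). By the value table's names the 50 µM arrays were instead at -2.57, -2.23 and -2.31 and the 10 µM arrays at -3.15, -3.46 and -3.36. Those groups do not overlap, and the change was 0.95 ± 0.57 (adjusted p = 0.201).

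Under the value table's names 7 of the 11 members were higher on all 3 arrays of 50 µM than on all 3 of 10 µM, and 29.1% of all tested miRNAs were. The 7 were miR-466f-3p, miR-466h-3p, miR-466i-3p, miR-466i-5p, miR-466q, miR-467f and miR-669p-3p. As 6 of them had the same highest arrays, they are not 7 separate observations. limma called 0 of the 11 under these names, where it called 28.4% of all tested miRNAs. The changes reached 1.05 ± 0.56 (SE) for miR-466f-3p, 0.97 ± 0.56 for miR-669p-3p, 0.93 ± 0.58 for miR-467f and 0.72 ± 0.76 for miR-466i-5p, with adjusted p from 0.156 upward.

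Leaving out DMSO 24 h replicate 5, which is in neither group but widens the shared spread, 2 of the 11 passed under the value table's names, and 30.8% of all tested miRNAs did. These were miR-466f-3p, 1.05 ± 0.33 (SE, adjusted p = 0.0240), and miR-466h-3p, 0.95 ± 0.35 (adjusted p = 0.0499). The share of members called, 18.2%, was below that of all miRNAs. By these names miR-466f-3p was at -3.58, -3.23 and -3.25 on the 50 µM arrays, detected on 2 of 3, and at the lower limit on the 10 µM arrays, detected on none. Its DMSO levels of 48 h ran from the lower limit to -3.08, so both doses lay within the range of the controls. On the 24 h arrays miR-466f-3p was at -4.14, -4.33 and -3.58 with 10 µM, -3.82 and -4.14 with 50 µM by the spot files, and -3.99, -4.41, -4.41, -1.68 and -4.41 in DMSO. The 24 h groups overlapped, and replicate 5 was the single DMSO array above the CsA range.

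**Figure D5:**
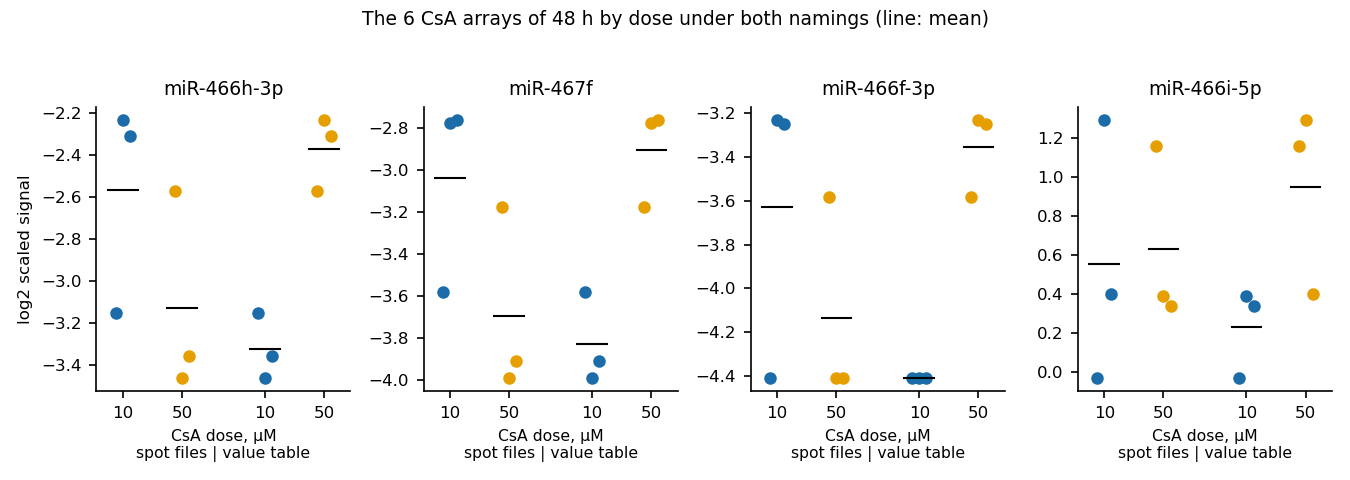
Log2 scaled signal of miR-466h-3p, miR-467f, miR-466f-3p and miR-466i-5p on the 6 CsA arrays of 48 h, grouped by dose as the spot files name them (left pair) and as the value table names them (right pair), with the mean as a line. The same 6 values overlap between doses on the left; on the right the 50 µM arrays lie above the 10 µM arrays, at -2.57 to -2.23 against -3.46 to -3.15 for miR-466h-3p.

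Against DMSO at 48 h, no member was called at either dose under either naming from the spot signals. limma called 0 of 11 at 10 µM where 6.23% of all tested miRNAs were called by the spot files and 1.04% by the value table's names. At 50 µM it called 0 of 11 where 0.346% and 37.7% were called. All 4 gave 0 members at an unadjusted p under 0.05. By the value table's names the 50 µM changes ran from -0.04 to 0.71 for miR-669n (± 0.63 SE, adjusted p = 0.378), with a median of 0.32 beside 0.15 over all tested miRNAs. By the spot files the median was -0.13. At 10 µM the order was opposite: the median was -0.32 with 10 of 11 members below 0 by the value table's names, and 0.08 with 9 of 11 above 0 by the spot files.

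A single member was called when the series' own value table was fitted in place of the spot signals. With 4.15% of all tested miRNAs called, miR-466q was lower at 50 µM than in DMSO at 48 h by the spot files' names, with a log2 change of -3.23 ± 0.73 (SE, adjusted p = 0.0188). In the spot signals the same comparison gave -0.51 ± 0.52 (adjusted p = 0.803). There miR-466q was at -3.84, -4.41 and -4.31 with 50 µM, detected on 1 of 3, and from -4.41 through a median of -3.61 to -2.99 in DMSO, detected on 5 of 6. With 10 µM it was at -4.06, -3.24 and -3.20. The groups overlapped in the spot signals. The value table was fitted by the spot files' names only. By its own names the 50 µM arrays were, in the spot signals, at -3.84, -3.24 and -3.20. The 10 µM arrays were then at -4.06, -4.41 and -4.31. Why the value table gave a larger change was not tested. At 24 h miR-466q stood at -4.03, -4.28 and -3.26 with 10 µM, -3.64 and -4.08 with 50 µM, and -3.84, -4.41, -4.39, -1.59 and -4.41 in DMSO.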

How the data were processed

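Total RNA was hybridised to 1-colour Agilent miRNA arrays, 22 of which were used here. The deposited spot intensities came, per the file headers, from Agilent's Feature Extraction (version 10.7.3.1), and the processed signal was already background-subtracted. The deposited value table holds normalised log2 values; the submitters' processing notes name R 2.15.2 for it. No other upstream step is given in the sources used here. The labels' treatment protocol names HepG2 cells and the label entry biotin, while all other labels give primary mouse hepatocytes. The latter was kept here.

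Each of 3105 probes was averaged over its spots without outlier flags, and its processed signal was scaled to a 75th percentile of 1 on each array, taken over 281 probes (188 to 605 intensity units before scaling). Scaled signals were set to at least 0.0471 and put on the log2 scale. The brightest probe stood for a miRNA. The test took the 289 of 1247 miRNAs detected on 3 or more arrays, with limma 3.58.1 in R 4.3.3, with Benjamini-Hochberg adjustment over the 289 and a threshold of 0.05. One fit held 4 groups with doses pooled and another 6 groups with doses apart, each sharing 1 spread. In data simulated for CsA against DMSO at 48 h with 289 miRNAs, the script called 16 of 20 changes of 1 log2 unit, 20 of 20 of 3 units and 5 of 249 unchanged miRNAs.

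The members and lists were chosen with earlier results of these data known. Every tested member is named, members seen on 1 or 2 arrays are named with their detection, and values by array are given for the 4 of highest median level and those called under any setting (for the 6 DMSO arrays of 48 h mostly as lowest, median and highest); miR-466j, miR-466k and miR-467g are shown as sequences to compare. Repeat entries are those whose mature sequence holds UGUGUGU or ACACACA. Names and hosts of hairpins came from the RefSeq gene table (GRCm38.p6), without coordinates. Alternatives covered scaling, background correction, floor, filter, probes, slide, experiment, sample names, the value table and single arrays left out.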

Additional observations from a re-analysis of the deposited data

Results flagged for a closer look

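In 13 of the 45 groups examined, each of 4 to 6 arrays, 1 array lay far from the others relative to the group's range. The cutoff is meant to flag about 1 in 20 groups by chance, but that rate does not apply here. The groups reuse the same arrays, and where all others sit at the lower limit, any value above it is flagged. DMSO 24 h replicate 5 accounted for 8 of the 13. On it miR-466h-3p stood at -1.04, where the nearest DMSO 24 h array was at -3.27, and miR-466f-3p at -1.68 (nearest -3.99). miR-466q was at -1.59 (nearest -3.84), and miR-669l-5p at -1.83 (nearest -3.71). miR-466i-3p at -2.12, miR-466g at -2.67 and miR-669c-3p at -2.69 had all other DMSO 24 h arrays at the lower limit of -4.41. The same array showed 24 detected members, where the nearest DMSO 24 h array had 10.

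The other 5 concerned members close to the lower limit. miR-466g was at -4.40 on DMSO 48 h replicate 6 and miR-669l-5p at -4.17 on DMSO 48 h replicate 4, with the rest of the group at the limit. Among the CsA arrays of 24 h, miR-466i-3p was at -3.81 and miR-669c-3p at -4.33 on 10 µM replicate 3, and miR-669l-5p was at -4.30 on 10 µM replicate 2.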

How the results depend on the processing

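The number of called members was 0 in all 10 comparisons, and stayed 0 in 95 of 96 checks with another setting and in 84 of 84 that left out an array other than DMSO 24 h replicate 5 (range 0 to 0). The exception was the value table fitted in place of the spot signals, which gave 1 for CsA 50 µM against DMSO at 48 h by the spot files' names. Leaving out DMSO 24 h replicate 5, also where its group is not compared or with the value table's names, was chosen after seeing the data. It left 15 of 16 counts at 0 (range 0 to 2) and gave 2 for 50 against 10 µM at 48 h by the value table's names. These were miR-466f-3p at 1.05 and miR-466h-3p at 0.95, opposite in sign to the spot files' names. The namings exchange the doses of replicates 2 and 3 at 48 h, so the same arrays are grouped differently. Which naming is right was not tested. Single changes, none called, turned sign in 174 of 1056 values under other settings, 59 of 176 without DMSO 24 h replicate 5 and 108 of 924 without another array. Within a slide 68 of 231 moved by more than the spread between arrays. With the experiment number as a replicate block limma called 0 members in all 10 comparisons. CsA and DMSO arrays of 1 experiment deviated with mean correlations of 0.393, 0.0657 and 0.155 at 24 h. At 48 h these were 0.201, 0.0854 and 0.261. No value for arrays of different experiments was set beside them, so a pairing by experiment was not settled. The main fits left the experiment number out. With no filter 23 members entered the fit and 0 were called. Median detection per array was 7 under the main rule, 7 with any probe, 4.5 with all spots and 9 with the scanner's own detection flag. Members near the lower limit have no resolved order there.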

Other observations

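Of the 1247 entries of the array, 16 were well above background on DMSO 24 h replicate 5 only, and 6 of these were members of the 4 families.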
